A study of Mus musculus with 3 samples.

Results

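Small nucleolar RNAs (snoRNAs) and small Cajal body RNAs (scaRNAs) were described in chromatin-bound RNA of mouse macrophages, by class, by length and beside the genes that host them. The genes were taken by symbol: box C/D snoRNA genes named Snord, H/ACA snoRNA genes named Snora and scaRNA genes named Scarna, each followed by a number. A gene counted as detected when its expected count was at least 10 in all 3 libraries. An expected count is the number of reads assigned to a gene, with reads that match several genes divided between them. Of 150 annotated symbols, 19 were detected (12.7%), against 22.4% of all 55536 annotated genes. They were 4 of 99 Snord symbols (4.04%), 11 of 42 Snora symbols (26.2%) and 4 of 9 Scarna symbols (44.4%). Among 1409 snoRNA or scaRNA genes with other symbols, which are not members, 36 passed (2.56%). Among all genes with an annotated length under 200 bases the share was 0.981%. In a second quantification of the same reads, described further on, 39.4% of Snord, 66.7% of Snora and 66.7% of Scarna symbols passed. Of all genes, 38.1% passed there. Because the members were selected on their expected counts, their counts and TPM are given as a description, with no test.

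The libraries were total RNA-seq with ribosomal RNA depletion from the chromatin fraction of bone-marrow-derived macrophages of strain C57BL/6J, stimulated for 60 minutes with 100 ng/ml Lipid A, the part of lipopolysaccharide that activates Toll-like receptor 4. All 3 libraries, labelled biological replicates 1, 2 and 3, belong to this single group. Unstimulated cells were not analysed here, and every value is a level after stimulation. The age and sex of the mice were not recorded in the labels, and all libraries carried the same donor entry, so the SDs below measure the spread between libraries, which may be technical. Replicate 1 began with 1 µg of RNA, replicate 2 with 250 ng and replicate 3 with 500 ng, and the labelled size range was 250 to 400.

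Expected counts on annotated genes summed to 13318395, 15352661 and 15812581 in replicates 1, 2 and 3. No library was a copy of another, since chi-square per degree of freedom over genes was 17.1 to 41.4 for the pairs of libraries. All 12 macrophage markers checked reached 1 TPM, a count divided by length and scaled to a fixed total, in every library, and their summed level was 981 to 1275 TPM. None of 21 markers of other cell types reached 1 TPM in any library, their summed level was 0.72 to 1.45 TPM, and 13 to 15 of them were at 0 in a given library.

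Most vertebrate snoRNAs are cut from the introns of host genes and kept as short, stable RNA-protein particles. Box C/D snoRNAs guide 2′-O-methylation and carry a C box near the 5′ end and a D box near the 3′ end, where the methyltransferase fibrillarin and its partners bind. H/ACA snoRNAs guide pseudouridylation by dyskerin, and fold into hairpins followed by an H box and by an ACA close to the 3′ end. Both kinds act mostly on ribosomal RNA in the nucleolus, while scaRNAs guide the same changes on spliceosomal RNAs in Cajal bodies.

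The sequences below are those of the 4 detected Snord genes, 3 Snora genes at both ends of the length scale, and 2 scaRNA genes of different build, because length and boxes are what the results turn on. They are transcript sequences of GENCODE M21 on mm10, 5′ to 3′. Capitals mark TGATGA starting in the first 20 bases and CTGA within the last 20 bases in Snord genes and Scarna6. In the others they mark the ANANNA of the middle stretch nearest the centre and the last ACA of the final 10 bases. Scarna13 had no ANANNA in that stretch, so only its ACA is marked.
Snord15b: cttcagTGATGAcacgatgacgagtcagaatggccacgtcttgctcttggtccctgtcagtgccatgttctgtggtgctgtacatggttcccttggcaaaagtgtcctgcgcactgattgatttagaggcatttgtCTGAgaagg
Snord15a: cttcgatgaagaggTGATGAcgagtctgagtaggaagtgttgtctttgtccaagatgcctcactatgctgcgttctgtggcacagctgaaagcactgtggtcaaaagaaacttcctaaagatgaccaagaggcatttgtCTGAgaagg
Snord17: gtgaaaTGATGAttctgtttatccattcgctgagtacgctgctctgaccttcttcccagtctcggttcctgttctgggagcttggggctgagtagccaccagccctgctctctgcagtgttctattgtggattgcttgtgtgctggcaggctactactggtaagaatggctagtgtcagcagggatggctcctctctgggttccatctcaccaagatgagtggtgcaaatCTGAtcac
Snord22: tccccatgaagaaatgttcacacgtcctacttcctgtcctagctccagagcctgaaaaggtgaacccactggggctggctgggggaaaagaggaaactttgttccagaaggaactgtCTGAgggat
Snora73b: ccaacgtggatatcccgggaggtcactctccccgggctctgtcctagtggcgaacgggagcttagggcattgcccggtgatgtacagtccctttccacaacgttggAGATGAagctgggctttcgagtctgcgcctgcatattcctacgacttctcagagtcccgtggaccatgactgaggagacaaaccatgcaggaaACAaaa
Snora73a: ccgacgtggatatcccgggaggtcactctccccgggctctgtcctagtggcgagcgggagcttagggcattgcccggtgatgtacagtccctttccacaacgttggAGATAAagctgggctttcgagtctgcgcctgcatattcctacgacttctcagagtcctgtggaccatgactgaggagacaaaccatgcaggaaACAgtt
Snora26: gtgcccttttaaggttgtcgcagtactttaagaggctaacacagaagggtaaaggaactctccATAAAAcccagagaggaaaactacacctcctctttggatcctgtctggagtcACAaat
Scarna6: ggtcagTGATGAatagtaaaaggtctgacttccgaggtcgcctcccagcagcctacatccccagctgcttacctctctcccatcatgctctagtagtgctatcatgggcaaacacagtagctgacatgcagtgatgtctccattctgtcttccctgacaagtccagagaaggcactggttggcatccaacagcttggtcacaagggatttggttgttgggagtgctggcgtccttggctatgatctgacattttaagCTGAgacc
Scarna13: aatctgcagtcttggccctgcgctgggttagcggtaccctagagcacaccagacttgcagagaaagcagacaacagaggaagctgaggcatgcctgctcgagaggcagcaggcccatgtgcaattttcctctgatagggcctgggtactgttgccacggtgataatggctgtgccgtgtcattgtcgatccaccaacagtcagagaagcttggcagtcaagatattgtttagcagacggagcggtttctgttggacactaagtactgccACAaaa

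Snord15b (mm10 chromosome 7, 99479563 to 99479707) and Snord15a (chromosome 7, 99482785 to 99482932), guides of the U15 family, lie on the minus strand inside Rps3, a gene of the small ribosomal subunit. Their aligned sequences were 66.0% identical. Snord17 (chromosome 2, 144265979 to 144266216, minus strand) lies in an intron of the sorting nexin gene Snx5. Snord22 (chromosome 19, 8725866 to 8725991, plus strand) overlaps an exon of Snhg1, a noncoding gene that hosts several snoRNAs. Snora73b (chromosome 4, 132352322 to 132352526) and Snora73a (chromosome 4, 132352775 to 132352979) are copies of U17, an H/ACA RNA needed for processing of 18S rRNA. They were 96.6% identical, with 7 mismatches over 205 bases, and lie on the minus strand inside Snhg3. Snora26 (chromosome 5, 74093530 to 74093650, plus strand) overlaps exons of the noncoding gene Dancr. Scarna6 (chromosome 1, 87784556 to 87784820, plus strand) lies in an intron of the autophagy gene Atg16l1. Scarna13 (chromosome 12, 105031075 to 105031349, minus strand) lies in an intron of Snhg10.

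The motifs followed the classes. TGATGA and CTGA were both present at the ends of 3 of the 4 detected Snord genes and of 68 of all 99 Snord symbols (68.7%), and of no Snora symbol. Among 20492 annotated transcripts of 64 to 414 bases, 1.65% held both. Snord22 was the exception, with CTGA but no TGATGA in its window. Both ANANNA in the middle stretch and ACA in the final 10 bases were present in 9 of the 11 detected Snora genes and 37 of 42 Snora symbols (88.1%), against 11.7% of those transcripts. ANANNA by itself is a loose pattern, held by 74.6% of those transcripts. The C and D boxes were both found in Scarna10 and Scarna6, which are known as mixed-type scaRNAs, and Scarna13 held ACA and neither of them. A match here is only a string of letters, searched on the transcript strand.

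Detection followed length. None of the 96 symbols shorter than 120 bases had any count in any library, 19 of 54 symbols of at least 120 bases were detected, and 10 of 10 of at least 150 bases were. The shortest symbol with any count had 121 bases, and the longest with none had 149. The 95 undetected Snord symbols had a median length of 83 bases, against 146.5 for the 4 detected, and 4 of the 5 Snord symbols of at least 120 bases were detected. All 42 Snora symbols had at least 120 bases, and the 31 undetected ones had a median of 132 bases, against 140 for the detected ones. The 4 detected scaRNA genes had 265 to 414 bases. Altogether 112 of 150 symbols were at 0 counts in each of the libraries. By counting error alone, a zero is compatible with up to 3 counts, which is 0.225, 0.195 and 0.19 CPM in replicates 1, 2 and 3. CPM is a count scaled by library size. This bound does not hold for the symbols under 120 bases, whose effective length, explained further on, was 0 in every library. Whether that kept reads from them was not tested. The zeros belong to the gene tables, and a second quantification of the same reads, described further on, put counts on many of the 112 symbols. It gave at least 10 counts in all libraries to 21 of 44 symbols of 60 to 79 bases. For 80 to 99 bases it was 12 of 45, and for 100 to 119 bases 3 of 7.

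**Figure D1:**
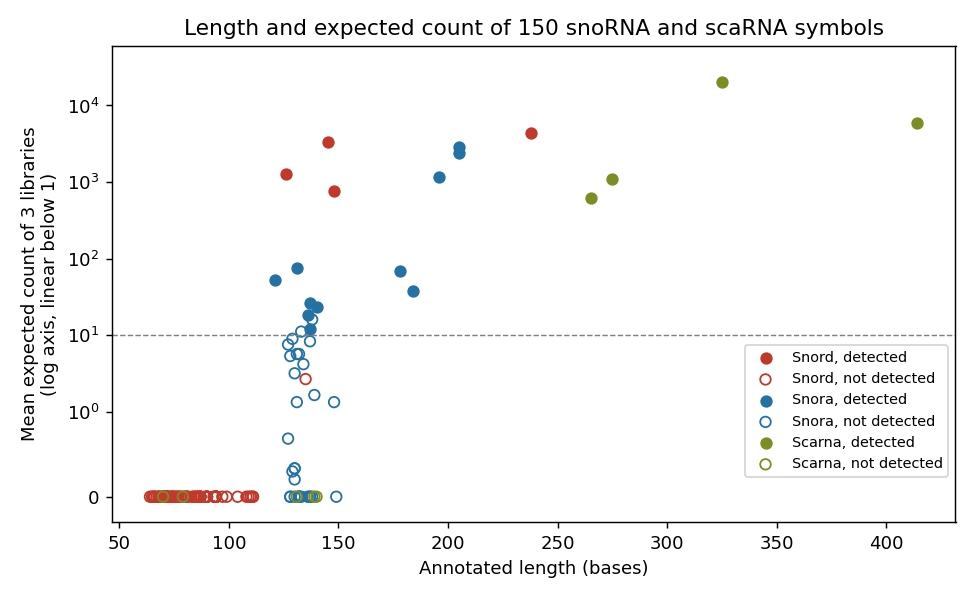
Annotated length in bases against the mean expected count of 3 libraries (log axis, linear below 1) for all 150 symbols, coloured by class, filled where detected, with the threshold of 10 dashed. All symbols under 120 bases lie at 0, and all 10 symbols of at least 150 bases are detected.

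At the threshold, the members with the lowest minimum count were Snora5c (10.8), Snora21 (11), Snora23 (12) and Snora70 (15.3). Just outside were Snora9 (7.88), Snora34 (7), Snora52 (6.97) and Snora44 (6.96). All 8 belong to the H/ACA class, so the threshold divides that class and leaves the other classes untouched by small shifts. Snord118, the U8 RNA needed for the large ribosomal subunit, was the Snord symbol of at least 120 bases that was not detected, with 7, 0 and 1 counts in replicates 1, 2 and 3.

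All 4 box C/D members had between 605 and 6585 counts in every library. Snord17 had 6585, 2847 and 3548 expected counts in replicates 1, 2 and 3. Snord15b had 5256, 2429 and 2444 counts, Snord15a had 967, 729 and 605, and Snord22, an RNA whose targets are not established, had 1374, 1225 and 1170. Replicate 1 was highest for each of them. As CPM, which divides by library size, the means were 301.4 ± 168 for Snord17, 236 ± 138 for Snord15b, 85.6 ± 15.4 for Snord22 and 52.8 ± 17.8 for Snord15a (SD, n = 3 each).

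The H/ACA genes fell into 2 levels. Snora73b had 3344, 2898 and 2377 counts in replicates 1, 2 and 3, Snora73a had 2365, 2971 and 1919, and Snora74a, the U19 RNA, had 1600, 1019 and 857. These 3 are the longest of the class, at 196 to 205 bases. The other 8 had means between 12 and 76.4 counts, with no gene in between. Snora68 led them with 68.7, 105 and 55.8 counts, and Snora21 was the lowest with 12, 11 and 13. Length did not order all of them, since Snora23 (184 bases) and Snora81 (178 bases) had means of 37.3 ± 38.8 and 68.5 ± 59.2 counts (SD, n = 3 each).

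The scaRNA genes held most of the counts. Scarna10, the U85 RNA that targets the U5 spliceosomal RNA and lies in the condensin gene Ncapd2, had 23917, 19124 and 18633 counts in replicates 1, 2 and 3, which was 45.8%, 45.1% and 47.3% of all counts on members. Scarna2, a guide for the U2 spliceosomal RNA and the only member without a host gene, had 4514, 7190 and 6023 counts. Replicate 1 was the lowest library for Scarna2 and the highest for Scarna10. Scarna13 had 1175, 1165 and 997 counts, and Scarna6 had 654, 603 and 614.

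**Figure D2:**
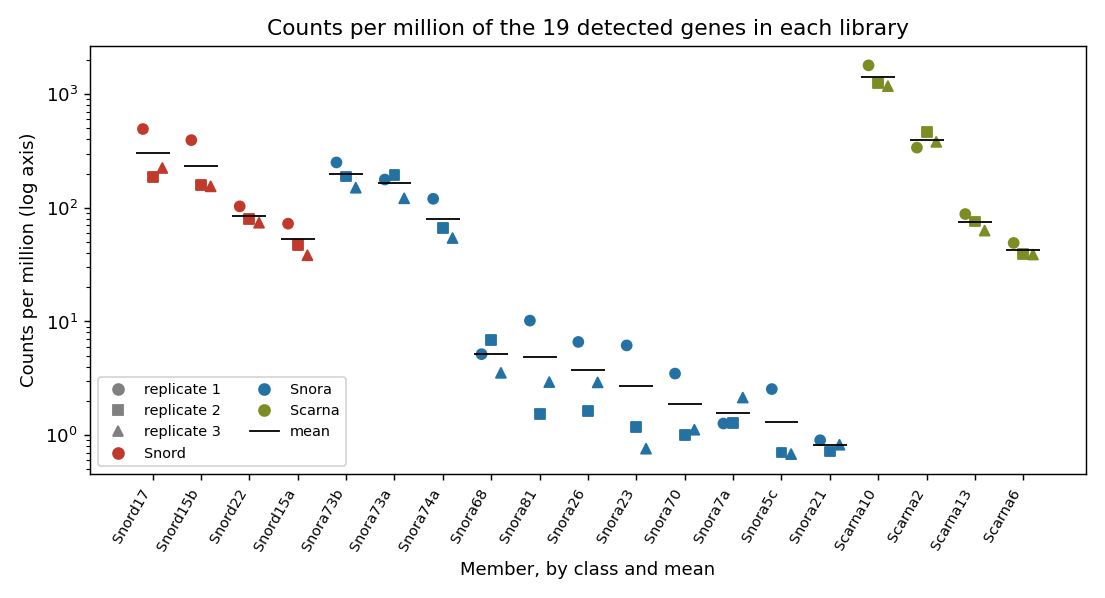
CPM (log axis) of each of the 19 detected genes in replicates 1 (circles), 2 (squares) and 3 (triangles), by class, with the mean as a bar. The 4 Snord genes lie between 38.3 and 494 CPM, and 8 of 11 Snora genes lie at or below 10.2 CPM in each library.

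By count, box C/D members stood above H/ACA members. The median Snord count was 3315, 1827 and 1807 in replicates 1, 2 and 3, and the median Snora count was 82, 23.5 and 46. The difference of the medians of log2(count + 1) was 5.44 ± 0.61 (SD over 3 libraries) and had the same sign in each. It was not a separation of the classes, since Snora73b and Snora73a lay above Snord22 and Snord15a in each library. With every annotated symbol in place of the members the difference was -1.55. Only 5 of 99 Snord symbols had at least 120 bases, against all 42 Snora symbols, and no shorter symbol had any count. With members chosen and measured in the second quantification it was -0.06. The rule chose the members by these same counts, so no test was made.

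Among members of like length, which were selected on their counts, the classes were apart. Between 120 and 149 bases there were 3 Snord members, with 967 to 5256 counts in replicate 1, 729 to 2429 in replicate 2 and 605 to 2444 in replicate 3. The 6 Snora members of that length had 12 to 88.0 counts in replicate 1, 10.8 to 105 in replicate 2 and 10.8 to 55.8 in replicate 3. In the second quantification the same genes had 752 to 5752 counts for Snord over the 3 libraries and 22.7 to 197 for Snora, so these members did not overlap there either. Over all symbols of that length, detected or not, the classes overlapped: the 4 Snord had 7 to 5256, 0 to 2429 and 1 to 2444 counts in replicates 1, 2 and 3, and the 37 Snora had 0 to 88.0, 0 to 105 and 0 to 55.8. The Snord symbol within the Snora range was Snord118 (135 bases), which was also within it in the second quantification.

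By TPM the order changed, and Snord15b stood above Scarna10 in every library. Snord15b was at 53263, 42479 and 41911 TPM in replicates 1, 2 and 3, and held 36.4%, 42.3% and 47.0% of the members' TPM. Snord15a was at 8455, 11053 and 8961 TPM, and Snord17 at 6382, 4625 and 5351. Snora73b was at 5447, 8210 and 6307 TPM and Snora73a at 3853, 8416 and 5092. Scarna10, first by count, was at 10091, 12037 and 10910 TPM. The median Snord TPM was 28943, 7839 and 7156 and the median Snora TPM was 574, 414 and 472 in replicates 1, 2 and 3. The first of these medians rests on the 49430 TPM of Snord22 in replicate 1. Without Snord22 and Snora26, whose effective length, explained below, was 0 in at least 1 library, the medians were 8455, 11053 and 8961 for 3 Snord genes and 656, 430 and 615 for 10 Snora genes. The difference of the medians of log2(TPM + 1) was 4.38 ± 0.68 (SD over 3 libraries). It was 4.09 without those members, and 0.35 in the second quantification with its own members.

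The shares of the classes changed places between the scales. Snord genes held 27.2%, 17.0% and 19.7% of the members' counts in replicates 1, 2 and 3, Snora genes 14.9%, 16.8% and 13.7%, and Scarna genes 57.9%, 66.2% and 66.6%. Of the members' TPM, Snord genes held 80.3%, 57.8% and 63.0%, Snora genes 11.2%, 25.8% and 20.8%, and Scarna genes 8.51%, 16.3% and 16.2%. All 19 members together held 0.392%, 0.276% and 0.249% of gene counts and 14.7%, 10.1% and 8.93% of gene TPM.

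The step between the scales is the effective length, the number of positions at which a fragment of the library's size could start, by which TPM divides. For genes much longer than a fragment it was shorter than the annotated length by 204, 253 and 242 bases in replicates 1, 2 and 3, so members shorter than a typical fragment were divided by a very small number. For Snord15b (145 bases) it was 5.37, 3.36 and 3.41 bases, and for Snora68 (131 bases) it was 2.27, 1.47 and 1.46. Scarna10 (325 bases) had 129, 93.3 and 99.8. For Snord22 (126 bases) it was 1.51 in replicate 1 and 0 in replicates 2 and 3, and its TPM was 49430, 0 and 0 from nearly equal counts. Snora26 (121 bases) had an effective length of 0 and a TPM of 0 in every library, with 88.0, 25.0 and 46.0 counts. The TPM of these 2 genes is therefore not a measure of their level. Of the 150 symbols, 97, 98 and 98 had an effective length of 0 in replicates 1, 2 and 3.

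Divided by annotated length and scaled to the same total as TPM, the 5 highest genes were the 5 highest by count. Scarna10 came first at 14101 ± 2423, then Snord15b at 5219 ± 2661, Snord17 at 4066 ± 1972, Scarna2 at 3169 ± 715 and Snora73b at 3129 ± 634 (SD, n = 3 each). The deposited TPM was 8.79 times this value for Snord15b, 20.7 times for Snora68 and 0.781 times for Scarna10. On this scale Snord genes held 38.4%, 26.8% and 30.1% of the members' total, Snora genes 18.5%, 22.0% and 18%, and Scarna genes 43.1%, 51.2% and 51.9% in replicates 1, 2 and 3. The members' share of all genes averaged 3.89% on it, against 11.2% ± 3.04 by TPM (SD, n = 3), and the median difference between Snord and Snora members was 5.58.

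**Figure D3:**
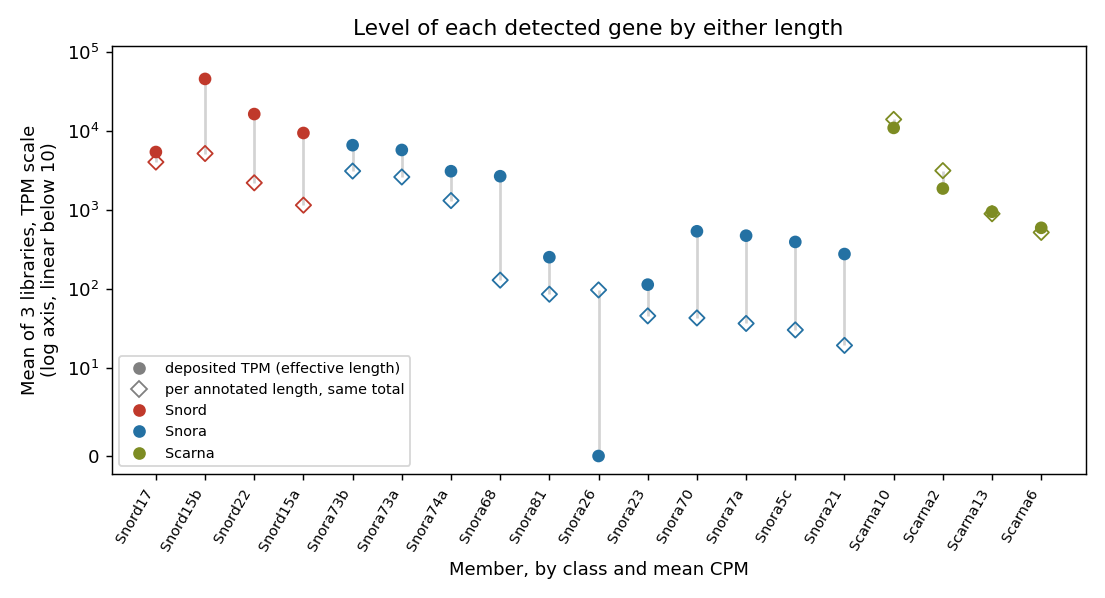
Mean level of 3 libraries on the TPM scale (log axis, linear below 10) of each detected gene, as deposited TPM (filled circles) and as the count per annotated length, scaled to the same total (open diamonds). The scales lie close for Scarna13 and Scarna6 and far apart for short genes, with TPM 20.7 times higher for Snora68 and 0 for Snora26.

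Members varied more between libraries than other detected genes. The SD of log2(CPM + 1) had a median of 0.395 over the 19 members, against 0.194 over 12417 other detected genes, and among genes with a mean count of at least 100 it was 0.356 for 11 members, against 0.174 for 7161 others. By class the median was 0.605 for Snord, 0.589 for Snora and 0.238 for Scarna members. Snora81 had the largest SD at 1.10, with 10.2, 1.53 and 2.93 CPM in replicates 1, 2 and 3. Snora23 followed at 1.09 with 6.16, 1.17 and 0.759 CPM, then Snora26 (0.775), Snord15b (0.768) and Snord17 (0.748). Snora21 had the lowest SD of 0.074.

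Replicate 1 held the highest CPM for 15 of 19 members, namely 4 of 4 Snord, 8 of 11 Snora and 3 of 4 Scarna genes, against 26.5% of the other detected genes. Replicate 3 was lowest for 12 of 19, against 43.8% of the others. Relative to the mean of the other libraries, the CPM in replicate 1 was 2.52 times as high for Snord15b, 2.41 times for Snord17 and 6.38 times for Snora23, and 0.798 times for Scarna2. Replicate 1 was also the library with the most starting RNA and the smallest gap between annotated and effective length, and the part of either in this order was not tested. Without replicate 1 the median SD of the members was 0.203, and the matching value of other genes was not computed.

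Most members, which were selected on their counts, stood above the genes that hold them. A host was defined as the shortest coding or long noncoding gene on the same strand that contains the member, and 18 members had one, in 16 distinct genes. Of these members 12 lie in protein-coding genes and 6 in noncoding genes, and 6 lie in ribosomal protein genes (33.3%, against 22.0% of the 141 hosted symbols). The TPM was above that of the host in every library for 15 of 18 members (not for Snora81, Snora26 and Snord22). Snora26 and Snord22 fell below the host only where their effective length, and so their TPM, was 0. The median log2 ratio of member to host, with 1 TPM added to each, was 6.97 ± 0.65 (SD over 3 libraries), and 7.46 without both genes. It was 4.87 with counts per annotated length and 2.05 in the second quantification with its own members. Since TPM raises short genes, the count per kilobase of annotated transcript was also compared. By it 13 of 18 members lay above the host in every library. The host value holds only reads assigned to annotated transcripts. Reads of unspliced host RNA across a member were not separated from the member, and their part was not tested. The share over all 141 hosted symbols was not computed. Of the 150 symbols, 112 had no count in any library and cannot lie above a host.

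Snord15b had 23287 counts per kilobase, against 172 for Rps3, which is a ratio of 135. Snord17 had 18179, against 476 for Snx5. Snord22 had 9968, against 332 for Snhg1, and Snord15a had 5182, against 172 for Rps3. Snora73b had 14016 and Snora73a 11798, against 21.8 for Snhg3. Scarna10 had 63255, against 45.5 for Ncapd2, and Scarna6 had 2353, against 297 for Atg16l1. All 4 Snord members and all 3 hosted Scarna members were above their hosts in each library by this measure.

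The exceptions were H/ACA genes of low count. Snora81 had 385 counts per kilobase, against 2142 for Eif4a2, a translation initiation gene. Snora21 had 87.6, against 856 for Rpl23, and Snora70 had 193, against 779 for Rpl10. Snora5c had 136, against 196 for Tbrg4, and Snora23 had 203, against 289 for the importin gene Ipo7. For both of these the libraries were split. Snora23 was above the host in replicate 1, with 446 against 258 per kilobase, and below it in replicates 2 and 3, with 97.8 against 312 and 65.2 against 297. Snora5c was likewise above in replicate 1, with 249 against 158, and below in replicates 2 and 3, with 79.3 against 199 and 79.0 against 231. The median of the mean TPM was 13.5 for the 16 hosts of members and 13.7 for 74 genes that host only undetected symbols.

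**Figure D4:**
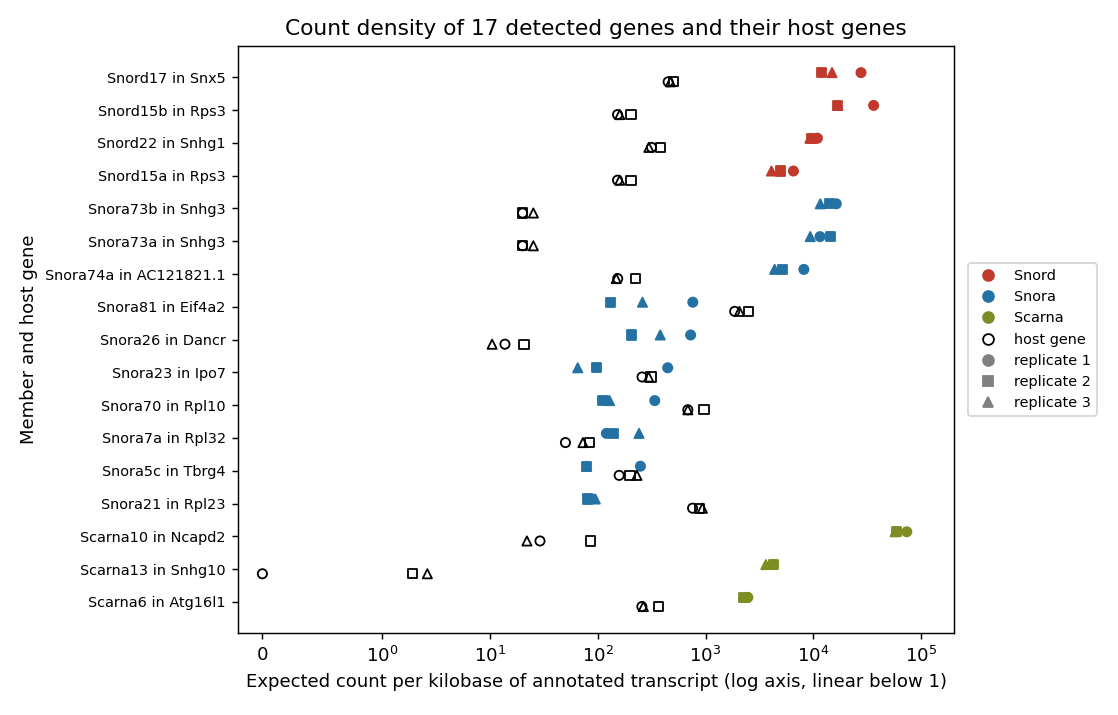
Expected count per kilobase of annotated transcript (log axis, linear below 1) of 17 of the 18 hosted members (filled, coloured by class) and of their host genes (open), in each of 3 libraries. All Snord and Scarna members lie right of their hosts, and 5 Snora members do not in at least 1 library.

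Several members share sequence with other annotated transcripts, so their counts rest on how reads were divided. Of the 31-base words of each member, every word occurred in a transcript of the host for 8 members, among them Snord15b, Snord22, Snora81 and Snora26, because a retained-intron or other exon of the host runs across them. In the annotation 11 members overlap a host exon, 9 of them in a retained-intron transcript, and 7 lie in an intron of every host transcript. Words of 12 members occurred in genes other than the host. For Snora73b that was 45.1% of words, shared with Snora73a and with Gm genes, for Snora81 it was 81.1%, and for Scarna10 85.1%, shared with Gm28967, a gene on the same strand that overlaps it by 281 bases and had 0 counts in every library. The counts of Snora73a and Snora73b rest on such a division. The deposited posterior SD of the count, the quantification's own error, was 1.65, 1.43 and 1.34 for Snora73b in replicates 1, 2 and 3. For Snora73a it was 1.73, 1.47 and 1.32. Whether the division is right beyond that error was not tested. Snord17, Snord15a, Snora23, Scarna2 and Scarna6 shared no word with an annotated transcript of another gene on the same strand. The division of reads between such transcripts therefore does not enter their counts. The search covered neither unspliced host RNA nor the opposite strand. Whether reads of either are in these counts was not tested. The strand setting was not stated in the labels or headers. Gm17300 lies opposite the Snora73 genes and 1600010M07Rik opposite Snora23. Whether reads of either strand were told apart at these genes is therefore not known.

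The second quantification, an estimated count and TPM per transcript from the same libraries, gave every member a higher count. Its total over genes was also higher, at 21055097, 27428699 and 27362420 in replicates 1, 2 and 3. The members held 0.275%, 0.179% and 0.166% of that total, against 0.392%, 0.276% and 0.249% in the gene tables. The ratio of the mean count in the second quantification to that in the first was 1.07 for Scarna10, 1.10 for Snord17 and 1.11 for Snord15b. It was largest for Snora7a (6.95), Snora21 (6.50) and Snora23 (4.43), with mean counts of 23.4, 12 and 37.3 in the first. The mean TPM was lower in the second for 17 of 19 members, and the median difference of log2(TPM + 1), second minus first, was -1.30 ± 0.47 (SD over 3 libraries). Snord15b was lower by a log2 difference of -3.01, Snora68 by -2.94 and Snord15a by -2.74. The other members were Snora26, at a mean TPM of 158 in the second and 0 in the first, and Snora23, at 169 in the second and 114 in the first. On the mean log2 scale Snord22 was also higher in the second, by 6.75, since its first TPM was 0 in replicates 2 and 3, while its mean TPM was lower, at 4004 in the second and 16477 in the first. In the second quantification the effective length of Snord15b was 26.6 bases in replicate 1, against 5.37 in the first.

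In that quantification 73 of 150 symbols had at least 10 counts in all libraries (48.7%, against 38.1% of all genes), namely 39 of 99 Snord, 28 of 42 Snora and 6 of 9 Scarna symbols. All 19 members were among them. Of the 54 others, 41 had no count at all in the gene tables. The median count of these 39 Snord was 34, 48 and 36.2 in replicates 1, 2 and 3, and that of the 28 Snora was 53.0, 33.4 and 38.2, so neither class was the higher one in all libraries. The 4 Snord members held 16002, 8693 and 9274 counts there, and the 35 other Snord 2922, 2459 and 2531.

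Among undetected symbols, Snord13, the U13 RNA that guides acetylation of 18S rRNA, had 0 counts in the gene tables and 37, 38 and 33 counts in the second quantification, and Snord118, with 7, 0 and 1 in the gene tables, had 130, 54 and 67. Of the guides in Rpl13a, Snord32a had 135, 148 and 127 counts, Snord33 45.6, 30.7 and 41.0, Snord34 27, 48 and 49, and Snord35a 26, 28 and 24. Snord14c and Snord14d, in the chaperone gene Hspa8, had 111, 81 and 182 and 145, 130 and 119. Snord21, picked after its values were seen as the highest undetected symbol, had 1137, 533 and 658. The 17 Snord116 copies of Snhg14, an imprinted locus known for expression in brain, had no count in either quantification. None of the 8 host genes with 3 or more of the 150 symbols held a member, among them Gas5 at 72.8 ± 17.3 TPM and Hspa8 at 60.7 ± 3.41 TPM (SD, n = 3 each). In the second quantification, 4 of 4 symbols of Rpl13a and 3 of 3 of 2410006H16Rik had at least 10 counts in all libraries. For Snhg12 it was 3 of 5, for Hspa8 2 of 3, for Gas5 1 of 4 and for Rpl23a 1 of 3. No symbol of Snhg14 or 1810032O08Rik did.

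**Figure D5:**
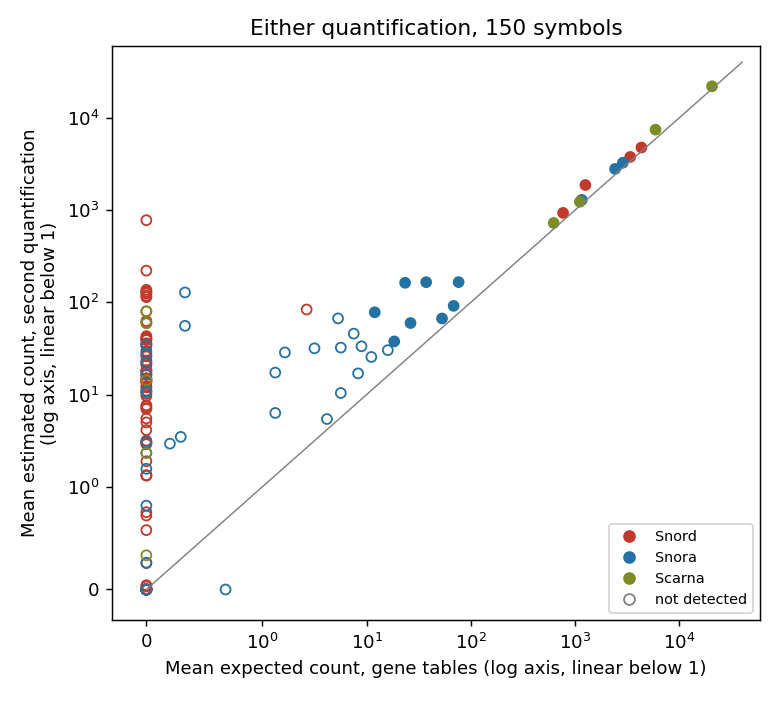
Mean expected count of the gene tables against the mean estimated count of the second quantification for 150 symbols (log axes, linear below 1), with the line of equality. Members (filled) lie on or above the line, and 41 undetected symbols (open) with at least 10 counts in all libraries of the second lie at 0 in the first.

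Genes for the proteins that build and release these particles were mostly present in the chromatin fraction. Of 32 such genes, 23 were at 1 TPM or more in all libraries (71.9%), against 35.7% of 22028 protein-coding genes. The box C/D core was complete, with Fbl, which encodes fibrillarin, at 6.49, 10.4 and 9.91 TPM in replicates 1, 2 and 3, and Nop56 at 14.1, 31.8 and 21.1. Of the H/ACA core 3 of 4 were at that level, with Dkc1, which encodes dyskerin, at 2.39, 5.06 and 4.32 TPM, and Nop10 lower at 0.66, 0.62 and 0.34. All 8 genes for release and trimming were at that level, led by the exosome helicase gene Mtrex at 39.5, 53.1 and 43.4 TPM and the exonuclease gene Xrn2 at 42.3, 42.8 and 41.6. Of 9 assembly genes 3 were, and of 7 Cajal body and transport genes 5, with Coil, the coilin gene, at 0.51, 0.9 and 1.31 TPM. Terc, the telomerase RNA, which also ends in an H/ACA domain, was at 1.48, 3.99 and 2.83 TPM from 6, 12 and 9 counts. Other related RNAs outside the naming rule were higher. Rmrp had 61741, 49808 and 68423 counts on an annotated gene and 5726, 13878 and 10621 on another. Rnu3a had 1008, 1033 and 637 on a gene and 61.8, 142 and 52.4 on another. Each Rnu3b gene had 347 counts or fewer in every library, some of them 0 in replicate 3.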

How the data were processed

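Chromatin-fraction RNA of 3 libraries was measured by total RNA-seq. Per the labels the assembly was mm10, and the files name GENCODE annotation M21. The aligner, the quantifiers and the strand setting were not stated in the labels or headers. Per the file headers, the authors deposited for each library a gene table with expected counts, effective lengths and TPM, and a second table by transcript with estimated counts and TPM, summed here per gene. Deposited TPM divides by effective length, which is near 0 for RNAs shorter than a fragment. The host comparison of 1 member is not reported here by name.

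Symbols came from the second tables and coordinates, transcript types and sequences from the annotation. CPM is the expected count over the library's gene total. Expected counts were rounded to whole numbers only for the comparison of libraries and for edgeR 4.0.16 and DESeq2 1.42.0 scaling factors (R 4.3.3). Other steps used python 3.11.15, numpy 2.4.6, pandas 2.3.3, scipy 1.17.1, matplotlib 3.10.9 and Biopython 1.88 (global alignment). The summaries were tested on simulated data. No p-value was computed, since the selection used the same counts and there is 1 group. The members and lists were chosen with earlier results of these data known. The text names members, symbols next to the threshold, hosts and listed particle genes by a rule set out with that knowledge, and Snord21 was added after its values were seen. Alternatives were other thresholds, leaving out each library, the second quantification, other scalings and other member sets.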

Additional observations from a re-analysis of the deposited data

How the results depend on the processing

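Of 92 alternatives computed for 10 results, 66 stayed within the spread between libraries, 22 moved and 4 changed sign. For counts of genes and for the median SD, the limit was 1.5 times in place of that spread. With each library left out in turn, the number of members was 19 to 21, the Snord minus Snora difference 3.99 to 4.88 by log2 TPM and 5.09 to 5.83 by log2 count, the Snord share 18.4% to 23.4% of member counts and 60.4% to 71.6% of member TPM, the members' share of gene TPM 9.50% to 12.4%, the median SD 0.203 to 0.521, the number above the host 15 to 17, the log2 ratio to the host 6.17 to 7.29, and the second minus first log2 TPM -1.57 to -1.21. No paired analysis was possible because there is 1 group.

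A threshold of 50 left 12 members, with Snord minus Snora differences of 1.24 by TPM and 0.29 by count and a host ratio of 9.57, since low Snora genes drop out. A threshold of 5 gave a count difference of 6.46 and a host ratio of 5.60, and a mean count of 10 gave a host ratio of 6.09. With the second quantification for selection and value there were 73 members, 54 above their host, differences of 0.35 by TPM and -0.059 by count, a Snord share of 54.3% of TPM, 3.89% of gene TPM on members, a host ratio of 2.05, and a second minus first difference of 5.37, over members many of which are at 0 in the first. Counts per annotated length gave a difference of 5.58, a Snord share of 31.8%, 3.89% of the total on members and a host ratio of 4.87. With every symbol the differences were -5.63 by TPM and -1.55 by count. Without the highest gene of each class the Snord share of counts was 31.6%. After seeing the data, dropping the 2 members of effective length 0 gave a count difference of 6.26, a TPM difference of 4.09, a Snord share of 63.7% of TPM and 9.57% of gene TPM on members, and summing the related pairs gave 6.53.

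The 4 members with the lowest counts, all H/ACA genes, had 10.8 to 15.3 counts in their lowest library, so small shifts decide membership there. The 4 symbols just below the threshold pass it in the second quantification. Depth was not varied.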
